A study of Mus musculus with 18 samples.

Results

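The comparison described here is the first day of differentiation in C2C12 cells that carried a control RNAi: 4 samples at day 1 against 3 samples at day 0. These 7 samples, on 9 arrays, were taken by their labels from a series of 15 samples on 18 arrays. C2C12 is an established line of mouse myoblasts, the proliferating precursors of muscle fibres. The control day 0 samples (replicates 2, 3 and 4) had been transfected with a high-GC content RNAi 24 h before and were still in growth medium, DMEM with 20% FBS. The control day 1 samples (replicates 1 to 4) had received the same RNAi 48 h before and had spent 24 h in differentiation medium, DMEM with 2% FBS. The other 8 samples received an RNAi against STAC3, a protein of the calcium release machinery of muscle, with 4 samples on each day, and serve here for the estimate of the spread and for 1 comparison at the end. Both control groups were transfected, so untransfected cells are no part of the comparison, and all samples come from a single cell line. The medium and the time since transfection changed together, so what follows is the sum of both, and the 2 cannot be told apart. The labels name the samples of a group biological samples without saying whether they came from separate cultures or transfections, so the p-values measure the spread between these samples, which may be partly technical.

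When serum is withdrawn, myoblasts stop dividing, switch on the transcription factor myogenin and later fuse into multinucleated myotubes that assemble sarcomeres. The basic helix-loop-helix factors of the MyoD family drive this programme by binding short DNA elements called E-boxes, together with MEF2 proteins. Id proteins and the kinases of the cell cycle hold it back while cells are growing, and the pocket proteins of the retinoblastoma family silence cell cycle genes once the cells have stopped.

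Levels are the authors' normalised values on a log2 scale, on which a step of 1 is a doubling for bright genes and more than a doubling for dim ones, whose differences are compressed in that table. A gene is said to rise or fall where its limma adjusted p was below 0.05, the p-values being adjusted over all 18408 probes tested. Genes are represented by their brightest probe, and other probes of a gene can differ in size. The changes over all probes ranged from 0.65 to 3.43 for Chrng, 0.32 to 2.88 for Myl1 and -1.69 to -0.10 for Cdk1, but from 1.89 to 2.02 for Mymk. A value of 6.87 is the level at which probes passed the detection threshold. Of the probes 6599 (35.8%) were called. Of 10146 genes tested, 2100 rose (20.7%) and 1940 fell (19.1%), and the median change over all of them was 0.00. The called changes were mostly small, with a median size of 0.43. Only 191 genes rose and 196 fell by at least 1 log2 unit, but the tail of the rises was longer: 10 genes rose by at least 3 units and 1 gene fell by as much. In 23.1% of genes every day 1 sample lay above every day 0 sample, and in 21.8% below. The median SD between samples was 0.08 at day 0 and 0.11 at day 1. Of the rises, 116 began with all 3 day 0 samples below the detection level, and 54 falls ended with all 4 day 1 samples below it; for such genes a minimum fold against the detection level is given.

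Across all probes, 77.45% of the variance among the 7 control samples lay on a component that separated the days. The next component (9.106%) lay within day 1, with replicate 1 at 17.2 and replicate 4 at -13.2. Muscle genes also varied within a day. The mean of the fast sarcomere genes was 8.13, 8.27 and 8.88 in day 0 replicates 2, 3 and 4, and 10.5, 10.7, 10.2 and 11.1 in day 1 replicates 1 to 4. Replicate 4 was the highest of its group on both days, and the groups did not overlap. Array names in the 2 deposited tables disagree for 12 of 18 columns, and samples were taken from the normalised table, in which the targeted gene followed the labels in every sample. The 3 repeat arrays of the series correlated with their partners at 0.9949 or more. The arrays fell into 2 sets by median intensity in the non-normalised table, 6 arrays at 50.4 to 57.3 and 12 at 65.5 to 85.5. Both sets hold both days, and the counts of calls within each are given in the closing section.

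The cells carried the markers of their label. Of 8 myoblast markers 6 were tested, and 4 rose: Itga7 (1.53), Cdh15 (1.20), Chrna1 (1.06) and Des (0.72). Itga7 is the laminin receptor of muscle, Cdh15 is M-cadherin, and Des is desmin. Myod1, the factor that marks the lineage, stayed near its level, at 8.64, 8.73 and 8.68 in the day 0 samples and 8.67, 9.12, 8.57 and 9.004 in the day 1 samples, and its change of 0.16 (SE 0.13) was not called (limma adjusted p = 0.415). The Myf5 probe was detected on too few arrays to be tested. None of 18 endothelial, immune and neural markers was tested, because 7 were below the filter and 11 are not named in the value table. Of the smooth muscle markers 6 were tested and 2 fell, of the adipocyte markers 4 were tested and 2 fell, and of the fibroblast markers 7 were tested and 2, Dcn and Col3a1, rose. The part of other cell types in the results was not tested.

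Myogenin, encoded by Myog, was the transcription factor with the steepest rise among the 22 tested regulators of the myogenic list. It measured 6.92, 6.81 and 7.46 at day 0, below the detection level in replicate 3 and just above it in replicate 2, and 8.99, 9.74, 8.79 and 9.92 at day 1. The groups did not overlap, and the rise was 2.29 (SE 0.26) (limma adjusted p = 4.99e-06). The other of the 2 Myog probes changed by 0.37. In RNA from whole cultures, more cells that express a gene and more RNA per cell cannot be told apart, here and for every gene below. Of the 22 regulators 9 rose, 1 fell and 12 were not called, with a median of 0.11. Csrp3, a cofactor of MyoD family proteins that also sits at the Z-disc, rose by 1.25 (SE 0.15). Smarcd3, the subunit that brings the SWI/SNF remodelling complex to muscle genes, rose by 0.57 (SE 0.10), the E-protein genes Tcf4 and Tcf12 by 0.56 (SE 0.11) and 0.35 (SE 0.10), and Mef2b by 0.53 (SE 0.10). Tcf12 is the weakest of these, since leaving out 1 control sample brought its adjusted p to 0.0601. Srf, the serum response factor, was the 1 regulator to fall, by 0.46 (SE 0.10). Mef2c changed by 0.07 (SE 0.07) and was not called (limma adjusted p = 0.488). Myf6, the member of the MyoD family that comes on late in muscle, rose from below detection at day 0 to 7.05 ± 0.13 (SD, n = 4), at least 1.13-fold. Its day 1 replicate 4, at 6.85, stayed below the detection level.

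The inhibitors of the myogenic factors moved the other way. Id3 measured 9.13, 8.84 and 8.82 at day 0 and 7.01, 7.30, 7.05 and 6.94 at day 1, so that it came down almost to the detection level, a change of -1.86 (SE 0.16). Id1 went from 9.43 ± 0.12 (SD, n = 3) to 7.75 ± 0.09 (SD, n = 4) and Id2 changed by -1.48 (SE 0.10) (largest limma adjusted p of the 3 genes = 2.86e-07). Each Id gene had its lowest day 0 sample above its highest day 1 sample. Id proteins lack a DNA-binding region and hold E-proteins in inactive pairs. Among other repressors the pattern was mixed: Twist2, Msx1 and Snai1 fell (-0.64, -0.55 and -0.54), whereas Msc, which encodes the E-box repressor musculin, rose from 8.36, 8.73 and 7.93 to 10.004, 10.51, 10.73 and 9.90 (1.95 (SE 0.24), limma adjusted p = 1.09e-05). Hes6, which counteracts Hes1, rose by 1.64 (SE 0.24), while Hes1 itself was at -0.05 and was not called. Among Notch genes, Notch3 and Dll1 rose by 0.90 and 0.58, the target Hey1 by 0.83 and the target Heyl at least 1.47-fold from below detection, and Notch1 and Jag1 were not called. Hey1 lost its call when any 1 of 5 control samples was left out (highest adjusted p 0.0927). Over the Notch and Id list 11 of 30 tested genes rose and 7 fell, with a median of 0.04.

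Genes of the contractile apparatus were among the largest rises. Mylpf, the light chain of fast myosin, measured 8.24, 8.89 and 10.14 at day 0 and 12.62, 13.28, 12.43 and 13.92 at day 1. Every day 1 sample lay at least 2 units above the highest day 0 sample, and the rise was 3.97 (SE 0.54) (limma adjusted p = 3.06e-05). Of 11 tested fast isoforms 8 rose and 0 fell (median 2.62), among them Pvalb (3.73), Tnnc2 (3.67), Tnni2 (2.997), Myl1 (2.88), Atp2a1 (2.62), Actn3 (2.45) and Tnnt3 (1.72). Those not called include Tpm1 (-0.001) and Myoz1, which was below detection on both days. Slow and cardiac isoforms rose alongside: Tnnc1, the slow troponin C, measured 8.71, 9.11 and 10.11 at day 0 and 12.20, 12.49, 12.04 and 13.43 at day 1 (3.23 (SE 0.44)), and Tnnt1, Myl4 and Tnni1 rose by 2.76, 2.44 and 1.30. In that list 7 of 10 tested genes rose, and 2, Tpm3 (-0.36) and the natriuretic peptide gene Nppb (-0.32), fell. The call of Nppb was lost without 1 control sample (adjusted p 0.0658). Of the 5 probes of Tpm3, 1 other was called in the opposite direction. The sarcomeric actins came on together, Actc1 from 7.41 ± 0.41 (SD, n = 3) to 10.80 ± 0.51 (SD, n = 4) and Acta1 from 8.01 ± 0.48 (SD, n = 3) to 11.34 ± 0.63 (SD, n = 4) (limma adjusted p = 2.81e-05 at most). The fast and slow programmes are separate in adult fibres, but on this day both rose in the same samples.

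Of 31 tested Z-disc and M-band genes 20 rose and 2 fell, with a smaller median of 0.40. Pdlim3, which binds alpha-actinin at the Z-disc, led with 8.18, 8.03 and 8.84 at day 0 and 12.22, 12.72, 11.59 and 12.12 at day 1 (3.81 (SE 0.35)). Klhl41 and Klhl40, which protect thin filament proteins from turnover, rose by 2.45 and 1.18, the myosin chaperone Unc45b at least 2.84-fold and the M-band proteins Myom2 by 1.64 and Myom3 at least 2.22-fold. The giant protein titin, Ttn, rose by 0.96 (SE 0.15), while the titin cap Tcap and the leiomodin Lmod3 only emerged from below detection, at least 1.29-fold and 1.31-fold. The falling genes were Pdlim7 (-0.64) and the non-muscle tropomodulin Tmod3 (-0.32), whose muscle counterpart Tmod1 rose (1.09). Tmod3 lost its call without any 1 of 3 control samples (adjusted p up to 0.0901).

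**Figure D1:**
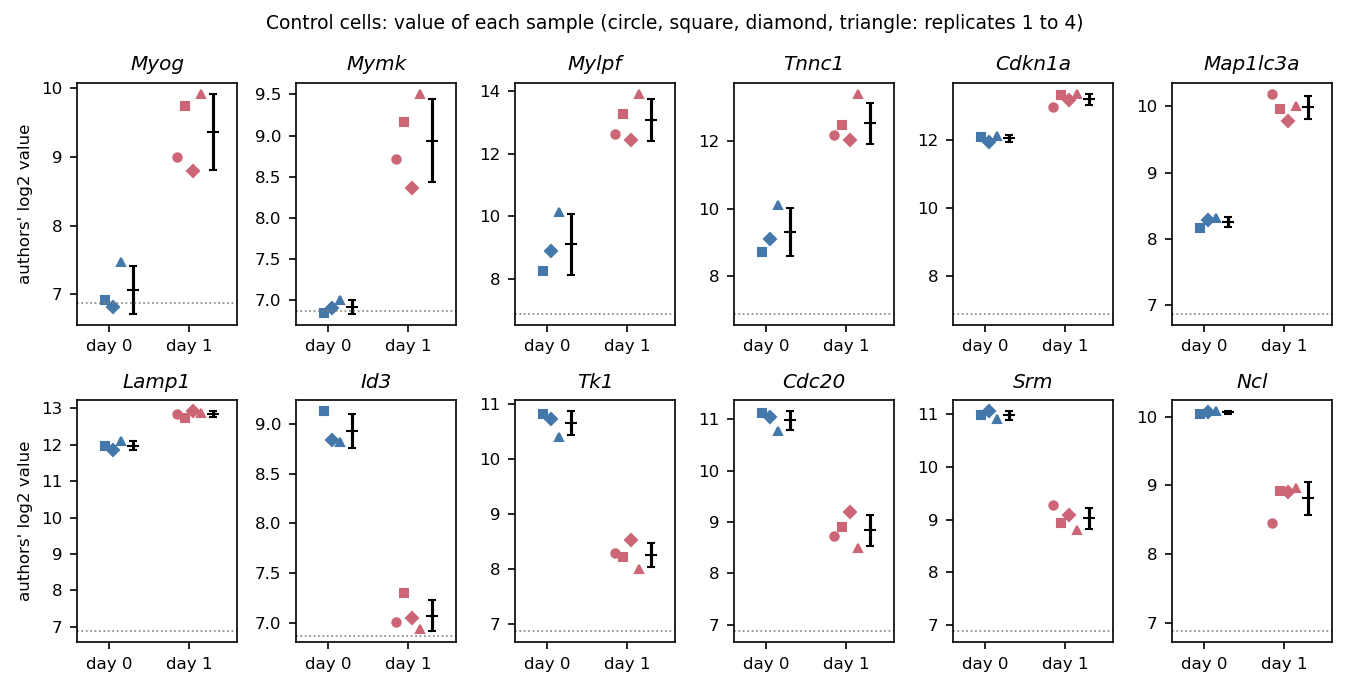
Value of each control sample for 12 genes named in the text, on the authors' log2 scale with a different range in each panel. Blue is day 0 (n = 3), red is day 1 (n = 4), marker shape is the replicate number, black bars are the mean ± SD and the dotted line is the detection level of 6.87. In all 12 genes the groups are apart, with Myog, Mymk, Mylpf and Tnnc1 showing the widest spread between day 1 samples.

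The promoters of 3 of these genes show the kinds of element for which the muscle programme is known, and are printed from RefSeq (GRCm38.p6) as the 250 bases before the annotated start of transcription, 5′ to 3′ on the gene's strand. Capitals mark matches to the E-box CAGCTG in Mylpf (chr7:127211358-127211607, plus strand) and Chrng (chr1:87205561-87205810, plus strand), and to the CArG box, the binding element of serum response factor, in Actc1 (chr2:114052876-114053125, minus strand).
Mylpf: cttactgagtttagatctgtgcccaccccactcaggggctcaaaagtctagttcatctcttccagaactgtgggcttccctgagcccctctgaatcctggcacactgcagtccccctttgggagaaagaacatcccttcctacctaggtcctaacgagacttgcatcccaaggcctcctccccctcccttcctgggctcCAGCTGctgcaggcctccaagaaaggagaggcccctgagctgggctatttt
Chrng: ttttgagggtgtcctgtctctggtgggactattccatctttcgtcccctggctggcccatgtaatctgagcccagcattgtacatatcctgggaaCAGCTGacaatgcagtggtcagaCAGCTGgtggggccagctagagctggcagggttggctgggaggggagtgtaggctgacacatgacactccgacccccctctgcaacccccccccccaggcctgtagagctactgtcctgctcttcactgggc
Actc1: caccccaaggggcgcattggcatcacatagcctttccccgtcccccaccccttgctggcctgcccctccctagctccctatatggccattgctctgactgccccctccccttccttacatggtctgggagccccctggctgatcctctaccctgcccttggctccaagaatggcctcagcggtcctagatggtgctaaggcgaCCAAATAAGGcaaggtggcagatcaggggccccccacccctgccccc
Over the 300-base windows from 250 before to 50 after the start, CAGCTG, which reads the same on both strands, was present in 23 of 62 windows (37.1%) of the tested sarcomere, Z-disc, calcium release and junction genes, against 16.1% of the 27025 genes that have a window. It was present in 43.5% of the 23 windows found for the 30 largest rises and in 12% of the 25 found for the 30 largest falls. The MEF2 element was present in 12.9% of the muscle windows and 1.89% of all, and the CArG box in 6.45% (4 of 62) and 1.57%, each searched on both strands. The CArG box did not set the muscle windows apart. It was present in 8.7% of the windows of the 30 largest rises, 8% of those of the 30 largest falls and 7.89% of those of replication-dependent histone genes. Where RefSeq lists several windows for a gene, the one listed before the others was used. These are counts of letters in short windows, and binding was not measured.

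Calcium release and the neuromuscular junction changed unevenly. Of 24 tested genes of the T-tubule and calcium store 14 rose and 0 fell (median 0.58). The sarcoplasmic reticulum genes Tmem38a, Srl, Hrc and Tmem38b, which encode a cation channel, sarcalumenin, a calcium-binding protein and another cation channel, rose by 1.91, 1.68, 1.48 and 1.45. The release channel Ryr1 rose by 0.95 (SE 0.17) and the channel subunit Cacng1 by 1.16 (SE 0.11), whereas the junctophilins Jph1 and Jph2, which hold the tubule to the store, were at -0.01 and 0.07 and were not called. Stac3 rose by 0.62 in these control cells. At the junction, the embryonic acetylcholine receptor subunit Chrng went from 8.37, 8.40 and 9.30 to 11.99, 12.42, 11.75 and 12.33, a rise of 3.43 (SE 0.29), and the subunits Chrnd, Chrna1 and Chrnb1 rose by 1.61, 1.06 and 0.62. Rapsn, which clusters the receptor, rose by 0.995 (SE 0.23), and the organisers Musk (0.02) and Agrn (0.16) were not called. Of 13 tested junction genes 5 rose and 1, Gabpa, fell (-0.23). Lrp4, the agrin receptor, changed by 0.62 (SE 0.31) and was not called (limma adjusted p = 0.137), but was called with the replicate number as a block (0.7552, adjusted p = 0.00702).

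The fusion list as a whole stayed near the background: 7 of 31 tested genes rose and 3 fell, with a median of 0.03. Its exception was Mymk, which encodes myomaker, the membrane protein that myoblasts need to fuse. Mymk measured 6.85, 6.90 and 7.01 at day 0, around the detection level, and 8.71, 9.16, 8.36 and 9.51 at day 1, a rise of 2.02 (SE 0.21) (limma adjusted p = 1.89e-06). Itga7, Cdh15, Cd9 and Cd81 also rose (1.53, 1.20, 0.64 and 0.46), while Adam12, Gjc1 and Jam2 fell (-0.44, -0.28 and -0.26). Gjc1 and Jam2 lost their calls when single control samples were left out, with adjusted p up to 0.164 and 0.119. Ncam1 and Cdon were not called (0.45 and 0.33), but both were called with the replicate number as a block (0.5227 with adjusted p = 0.00228, and 0.3988 with adjusted p = 0.00243). Of 18 tested genes of the dystrophin complex and costamere, the anchor of the sarcomere to the membrane, 9 rose and 0 fell (median 0.27), with Ank1 (1.34), Sgca (0.90), Dag1 (0.82) and Sgcb (0.60) as examples.

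Most muscle isoforms of metabolic enzymes and most genes of general glycolysis rose, and the general respiratory chain stayed near the background. Of 23 tested muscle isoforms of energy metabolism 15 rose and 0 fell (median 0.70). Mb (myoglobin) rose by 1.98 (SE 0.30), Pgam2, the muscle phosphoglycerate mutase, at least 3.31-fold from below detection and Ckm, muscle creatine kinase, at least 3.00-fold, with day 0 values of 6.70, 6.80 and 6.77 and day 1 values of 8.44, 8.50, 7.85 and 9.03. The muscle subunits of cytochrome oxidase rose, Cox8b at least 2.64-fold and Cox7a1 and Cox6a2 by 1.02 and 0.71. By contrast, 16 of 73 tested genes of the citric acid cycle and respiratory chain rose and 6 fell (median 0.04), shares of 21.9% and 8.22% against 20.7% and 19.1% of all genes. In general glycolysis 9 of 15 tested genes rose (60%) and 0 fell, with a median of 0.29. The muscle enolase Eno3 (0.21) and the lactate dehydrogenase Ldha (-0.15) were not called. The coactivator Ppargc1b rose by 0.66, whereas Ppargc1a was below detection in all day 0 samples and not called. Pdk4, a kinase that shuts down pyruvate dehydrogenase, fell by 0.63 (SE 0.13).

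Most lysosomal and autophagy genes rose in this first day. Of 58 genes on the list 49 were tested, and 33 rose, 2 fell and 14 were not called, with a median of 0.44; 67.3% rose against 20.7% of all genes. Ctsa, which encodes protective protein of the lysosome, measured 8.69, 8.72 and 8.94 at day 0 and 10.84, 10.04, 10.47 and 10.64 at day 1 (1.72 (SE 0.17)). Map1lc3a, one of the LC3 proteins that coat the autophagosome, measured 8.17, 8.28 and 8.32 and 10.19, 9.95, 9.78 and 9.997 (1.72 (SE 0.09)), and its relatives Gabarap, Map1lc3b and Gabarapl1 rose by 0.80, 0.56 and 0.49 (largest limma adjusted p of the 5 genes = 0.00768). Lysosomal hydrolases rose by about a unit or less: Tpp1 (1.05), Neu1 (0.94), Hexa (0.89), Man2b1 (0.87), Psap (0.80), Glb1 (0.78), Gaa (0.78) and Ctsb (0.60). The 1 other probe of Glb1 was called in the opposite direction. The membrane proteins Lamp1 and Lamp2 rose by 0.87 (SE 0.08) and 0.59 (SE 0.11), the proton pump subunit Atp6v1a by 0.94 (SE 0.16) and the cholesterol exporter Npc1 by 0.67 (SE 0.10). Lamp1 was already among the bright genes, at 11.96, 11.85 and 12.11 on day 0, and reached 12.85, 12.73, 12.93 and 12.87. The cargo receptor Sqstm1 (0.000), the initiators Ulk1 (0.21) and Becn1 (0.16) and the proteases Ctsd (0.11) and Ctsl (0.19) were not called. Those that fell were Atg5 (-0.25) and Tfe3 (-0.26), the latter a transcription factor of lysosomal genes, and Tfe3 lost its call without either of 2 control samples (adjusted p up to 0.0683).

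In the windows of this list another E-box was counted. CACGTG, the form bound by factors of the TFE3 and MYC families, was present in 12 of 38 windows (31.6%), against 7.24% of all windows and 10.5% of those of tested genes. The longer form TCACGTGA, which contains CACGTG, was present in 13.2%, against 1.01% of all windows and 2.02% of those of tested genes. Both read the same on either strand. The 250 bases before the start of Lamp1 (chr8:13158911-13159160, plus strand) are shown because they hold 4 copies of CACGTG, in capitals, with their first bases 61, 45, 28 and 15 bases before the start.
Lamp1: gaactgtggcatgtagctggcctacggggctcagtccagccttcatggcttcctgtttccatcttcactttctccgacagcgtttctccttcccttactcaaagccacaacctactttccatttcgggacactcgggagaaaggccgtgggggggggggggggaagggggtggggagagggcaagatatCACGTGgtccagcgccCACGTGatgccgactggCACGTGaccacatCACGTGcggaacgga
CACGTG was present in 11.1% of the windows of all genes that rose and in 12.3% of those that fell. In the ribosome assembly list, most of whose genes fell, 12 of 49 windows (24.5%) held it.

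**Figure D2:**
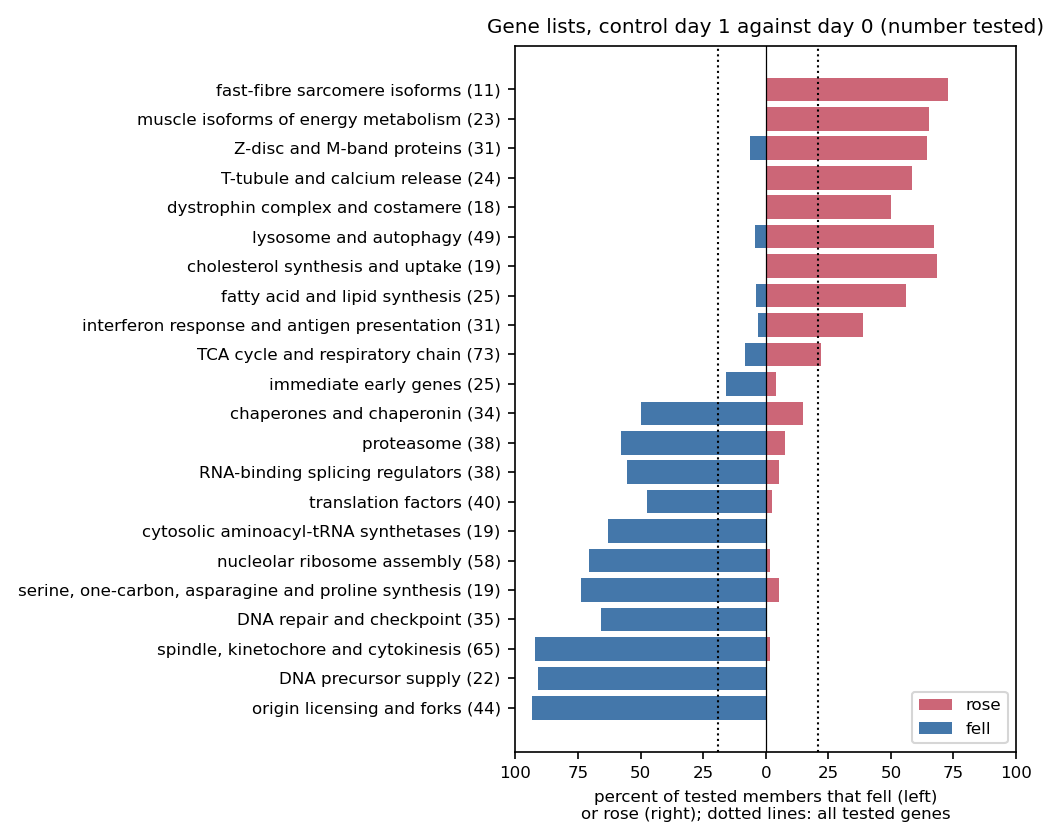
Share of the tested members of 22 gene lists that rose (red, to the right) or fell (blue, to the left) in control cells from day 0 to day 1, in percent, with the number tested in brackets. Dotted lines are the shares of all 10146 genes, 20.7% rising and 19.1% falling. Muscle, lysosome and lipid lists lie to the right, replication, mitosis and ribosome assembly to the left, and the respiratory chain and immediate early genes close to or inside the lines.

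Genes of lipid synthesis mostly rose. Of 19 tested genes of cholesterol synthesis and uptake 13 rose and 0 fell (median 0.58), led by the enzymes Mvd (1.13), Nsdhl (1.07), Hsd17b7 (1.02) and Fdps (0.97); Nsdhl lost its call without 1 control sample (adjusted p 0.0601). Of 25 fatty acid and lipid genes 14 rose and 1, the lipoprotein lipase Lpl, fell (-0.53), a call lost without any 1 of 3 control samples (adjusted p up to 0.11). Scd1, which makes the double bond of oleic acid, measured 11.26, 11.12 and 11.29 at day 0 and 12.75, 12.62, 12.69 and 12.51 at day 1 (1.42 (SE 0.10)), Acsl3, which activates fatty acids, rose by 1.60 (SE 0.16) and Pltp, a phospholipid carrier, by 1.39 (SE 0.13). The groups did not overlap for any of these 3 genes.

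Genes of cell division fell almost as whole lists. Of 44 tested genes of origin licensing and forks 41 fell and 0 rose (93.2%, median -1.002, against 19.1% of all genes). All 6 subunits of the MCM helicase, which opens DNA at origins, fell: Mcm5 (-2.25), Mcm4 (-1.94), Mcm7 (-1.43), Mcm6 (-1.40), Mcm2 (-1.20) and Mcm3 (-1.12). The loading factors Cdt1, Cdc6 and Orc6 fell by 1.22, 1.08 and 1.15 log2 units, while Orc3 (0.09) and Orc1, below detection at day 1, were not called. Top2a, the topoisomerase that untangles replicated DNA, fell from 9.87, 9.94 and 9.44 to 7.75, 8.02, 8.18 and 7.59 (-1.87 (SE 0.17)). The sliding clamp Pcna changed by -0.60 (SE 0.10). Of 22 tested genes that supply DNA precursors 20 fell (median -0.71). Tk1, thymidine kinase, measured 10.82, 10.73 and 10.40 at day 0 and 8.30, 8.22, 8.52 and 7.997 at day 1 (-2.39 (SE 0.11), limma adjusted p = 1e-09), and Rrm2 and Rrm1, the subunits of ribonucleotide reductase, changed by -2.18 and -1.16. Of 35 tested repair and checkpoint genes 23 fell and 0 rose, with a smaller median of -0.30, and Prkdc (0.04) and Trp53bp1 (0.20) were among those not called.

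Of 65 tested genes of the spindle, kinetochore and cytokinesis 60 fell, 1 rose and 4 were not called (median -1.24). Cdc20, the activator that starts anaphase, measured 11.12, 11.04 and 10.77 at day 0 and 8.74, 8.91, 9.20 and 8.50 at day 1, lowest in replicate 4 on both days (-2.14 (SE 0.13)). The passenger complex genes Birc5, Cdca8 and Aurkb changed by -2.34, -1.92 and -1.75, and the kinases Pbk, Aurka, Bub1b and Plk1 by -2.26, -2.12, -1.86 and -1.83 (largest limma adjusted p of these 7 = 5.86e-08). Anln, the anillin of the cytokinetic ring, and Gtse1, a microtubule-bound protein of G2 and mitosis, fell by 2.22 and 1.97. Foxm1 and Mybl2, transcription factors of this gene set, fell by 1.42 and 0.99. The 1 rise was Kif23 (0.59), a kinesin of the midbody, but 2 other probes of Kif23 were called in the opposite direction, so its direction rests on the choice of probe.

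Promoters of these genes are shown for Cdc20 (chr4:118437344-118437593, minus strand), as an example of a mitosis gene, and for Mcm5 (chr8:75109259-75109508, plus strand), as an example of a licensing gene. Capitals mark CCAAT, the element of NF-Y, in both; TTTGAA or TTCGAA, the cell cycle homology region bound by the DREAM and MuvB complexes, in Cdc20; and TTTGGCGC or TTTCCCGC, forms of the E2F site, in Mcm5, where it lies on the other strand.
Cdc20: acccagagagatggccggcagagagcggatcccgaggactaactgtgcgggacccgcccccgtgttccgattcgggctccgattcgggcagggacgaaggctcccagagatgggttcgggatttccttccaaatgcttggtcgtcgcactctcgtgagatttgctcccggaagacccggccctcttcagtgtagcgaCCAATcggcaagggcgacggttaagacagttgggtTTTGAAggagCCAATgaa
Mcm5: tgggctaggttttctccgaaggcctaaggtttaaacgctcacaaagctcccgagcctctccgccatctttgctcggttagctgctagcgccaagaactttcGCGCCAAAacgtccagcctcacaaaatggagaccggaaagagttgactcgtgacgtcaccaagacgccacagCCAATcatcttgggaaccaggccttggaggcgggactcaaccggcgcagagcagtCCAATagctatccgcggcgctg
TTTGAA or TTCGAA was present in 37 of 56 windows of tested mitosis genes (66.1%), in 27% of licensing windows and in 19.4% of all windows. The order was the reverse for TTTGGCGC or TTTCCCGC, with 29.7% of 37 licensing windows, 8.93% of mitosis windows and 1.63% of all. In the windows of tested genes the shares were 13.7% for TTTGAA or TTCGAA and 2.98% for TTTGGCGC or TTTCCCGC. CCAAT was present in 64.3% of mitosis windows, 56.8% of licensing windows, 37.9% of all and 38.6% of those of tested genes. Of the 30 largest falls, 84% of the windows held CCAAT and 64% held TTTGAA or TTCGAA, and of the 30 largest rises 39.1% and 0%. For TTTGGCGC or TTTCCCGC these shares were 4% and 0%. The 30 largest falls include H2A histone genes as well as division genes. In the list of replication-dependent histones 84.2% of the windows held CCAAT and 44.7% held TTTGAA or TTCGAA. All were searched on both strands. Besides TCACGTGA, which contains CACGTG, a CArG box can contain CCAAT.

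The regulators of the cycle did not move as one. Cyclins and their kinases fell in 10 of 18 tested genes and rose in 2. Cdk1 changed by -1.69 (SE 0.12) and Ccne2 by -1.36 (SE 0.09), whereas Cdk4 (0.01) and Cdk6 (-0.16) were not called; Cdk6 was called with the replicate number as a block (-0.165, adjusted p = 0.0331). The D cyclins split. Ccnd1 measured 12.56, 12.72 and 12.14 at day 0 and 11.66, 11.65, 12.06 and 11.39 at day 1 (-0.79 (SE 0.15)), Ccnd2 was not called (0.01) and Ccnd3, the D cyclin that stays on in muscle, rose by 0.34 (SE 0.11) (limma adjusted p = 0.0259), a call lost without any 1 of 4 control samples (adjusted p up to 0.111). Among the brakes, Cdkn1a, the p21 inhibitor, rose from 12.07, 11.92 and 12.11 to 12.97, 13.30, 13.16 and 13.33 (1.15 (SE 0.09)), Gadd45a from 9.82, 9.88 and 9.99 to 11.72, 11.72, 11.98 and 11.91 (1.94 (SE 0.10)), the retinoblastoma gene Rb1 by 0.86 (SE 0.18) and Cdkn1c by 0.95 (SE 0.29), while Cdkn1b (0.06) and Cdkn2a (0.07) were not called. Cdkn1c lost its call without either of 2 control samples (adjusted p up to 0.068). The pocket protein Rbl1 fell (-0.74) and Rbl2 was not called (0.08), and the E2F partner Tfdp1 fell (-0.68) although E2f1 and E2f2 rose (0.61 and 0.54). In this list 7 of 25 tested genes rose and 8 fell.

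Histone genes divided by class rather than falling together. In the list of replication-dependent histones 43 genes were tested, of which 26 fell and 8 rose. All but 1 of 12 H2A genes fell, with a median of -2.51, while 6 of 11 H2B genes rose and 1 fell, with a median of 0.36. Of 9 H3 genes 8 fell (median -0.65) and of 10 H4 genes 6 fell (median -0.22), and the 1 tested H1 gene, H1f2, rose by 1.01 (SE 0.11). H2ac15 measured 13.12, 13.24 and 12.66 at day 0 and 10.10, 9.83, 10.23 and 9.71 at day 1 (-3.04 (SE 0.13)), and the exception H2ac18 rose from 7.25, 7.32 and 7.51 to 8.85, 8.56, 8.41 and 8.52 (1.22 (SE 0.12)). The other H2A genes among the 30 largest falls, H2ac7, H2ac10, H2ac11, H2ac12, H2ac13, H2ac20, H2ac21, H2ac22 and H2ac24, fell by 1.92 to 2.88 log2 units. H2ac24 is not on the list and is not part of the counts by class. The 1 other probe of H2ac20, and likewise that of H3c14 in the H3 class, was called in the opposite direction. The H2B gene H2bc4 measured 10.41, 10.33 and 10.49 and 10.56, 11.20, 11.04 and 11.34 (0.63 (SE 0.18), limma adjusted p = 0.0103). Genes within a class are nearly identical in sequence, so the probes may share targets and the members are not separate measurements. The calls of H2bc6, H2bc7 and H2bc14 were each lost without 1 control sample. Of the variant histones, listed here as replication-independent, Cenpa, H2az1 and H2ax fell (-1.99, -1.22 and -1.12). Of the paired genes for H3.3, H3f3b fell and H3f3a rose (-0.47 and 0.48).

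**Figure D3:**
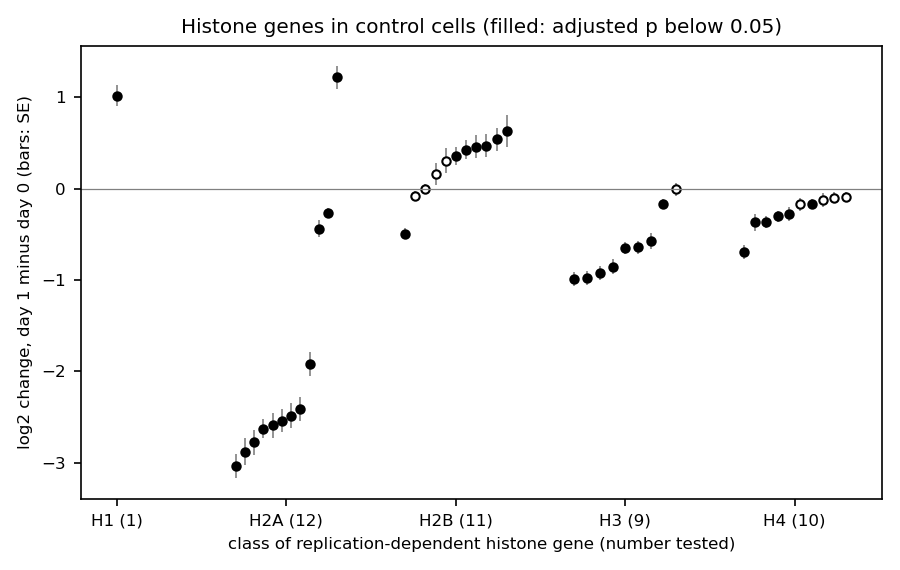
Change from day 0 to day 1 in control cells of 43 replication-dependent histone genes by class, in log2 units, sorted within each class. Bars are SE and filled points have an adjusted p below 0.05. The H2A genes lie around -2.5 with a single gene above 0, whereas most H2B genes lie above 0.

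Chromatin and nuclear lamina genes followed the division genes in part. Of 50 tested chromatin genes 21 fell and 8 rose: Hmgb2, Asf1b, Uhrf1, Hmgn2, Nasp and the Polycomb methylase Ezh2 changed by -1.89, -1.70, -1.68, -1.58, -1.35 and -0.88, and the deacetylase Hdac5 by 0.47. Hdac11, another deacetylase, rose at least 1.37-fold from below detection. Ezh1, the sister of Ezh2, was below detection at day 0 and not called. Lmnb1, the B-type lamin of dividing cells, measured 11.05, 10.96 and 10.40 at day 0 and 8.61, 8.93, 8.77 and 8.55 at day 1 (-2.09 (SE 0.18)). Lbr and Lmna fell by 0.98 and 0.84, Vim fell by 0.25, and Des rose by 0.72. The call of Vim was lost without any 1 of 4 control samples (adjusted p up to 0.199).

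Many genes of the growth machinery fell beside those of division. Of 58 tested genes of nucleolar ribosome assembly 41 fell and 1 rose (median -0.52). Ncl, nucleolin, measured 10.04, 10.07 and 10.08 at day 0 and 8.46, 8.92, 8.90 and 8.96 at day 1, with replicate 1 below the other day 1 samples (-1.26 (SE 0.12)). The box C/D proteins Nop58 and Nop56 fell by 1.32 and 1.10 and the box H/ACA proteins Gar1 and Nhp2 by 1.33 and 1.11; these 2 complexes modify ribosomal RNA. Myc, which drives such genes, fell by 0.33 (SE 0.08), and Mxd4, which opposes it, was the 1 rise (0.75 (SE 0.15)). Mycl, another member of the Myc family, went up from 7.49, 7.35 and 7.89 to 9.28, 10.04, 8.98 and 9.95 (1.99 (SE 0.29)). Of the ribosomal proteins themselves 20 of 54 tested fell and 0 rose, with a median of -0.15; Rplp0 fell by 0.997 (SE 0.09). Of 19 tested cytosolic tRNA synthetases 12 fell and 0 rose (median -0.42), among them Vars (-1.002), Farsb (-0.69) and Rars (-0.64), and of 40 translation factors 19 fell and 1, the elongation-slowing kinase Eef2k, rose (0.34). Eef2k lost its call without either of 2 control samples (adjusted p up to 0.0789). Eif5a, whose protein needs a residue made from spermidine, fell by 0.91 (SE 0.11).

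Srm, spermidine synthase, was among the 30 largest falls, from 10.98, 11.07 and 10.90 at day 0 to 9.28, 8.93, 9.08 and 8.80 at day 1 (-1.96 (SE 0.12), limma adjusted p = 7.74e-09). Odc1, which makes the precursor of spermidine, fell by 1.26 (SE 0.10), Bcat1, which starts the breakdown of branched-chain amino acids, by 1.96 (SE 0.16) and Phgdh, which opens serine synthesis, by 1.55 (SE 0.16). Of 19 tested genes in this list 14 fell and 1, the transaminase Gpt2, rose (0.95, median of the list -0.98). Many targets of the factor ATF4 also fell: of 32 tested genes of the integrated stress and unfolded protein response 16 fell and 2 rose, with Chac1, Trib3, Ddit3 and Atf4 itself at -1.16, -1.01, -0.65 and -0.58. Fgf21, a hormone gene of the same response, did the opposite and rose from 7.46, 7.67 and 7.95 to 9.88, 10.02, 9.78 and 10.20 (2.28 (SE 0.11)), as did Vldlr (1.39 (SE 0.10)).

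Genes of chaperones and the proteasome fell more often than they rose. Of 34 tested chaperones 17 fell and 5 rose. The changes of Hspd1 and Hspe1, the mitochondrial chaperonin pair, were 1.13 and 0.85 log2 units in size. The small muscle chaperones were split, with Hspb6 falling (-1.13) and Hspb2 rising (0.50). Of 38 proteasome genes 22 fell and 3 rose (median -0.25), and the rises include Psme1 and Psme2, the 2 subunits of the PA28 activator (0.64 and 0.48). Ubiquitin ligases of muscle rose in 9 of 16 tested genes and fell in 0, with Fbxo32 (atrogin-1) at 1.18 (SE 0.09), Asb2 at least 2.10-fold from below detection and Trim63 (MuRF1) at 0.40 (SE 0.11), while Foxo1 (-0.20) and Foxo3 (-0.17), known to drive atrogin-1, were not called. Foxo3 was called with the replicate number as a block (-0.1894, adjusted p = 0.0416).

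Splicing regulators fell in 21 of 38 tested genes and rose in 2 (median -0.34). Srsf2, which promotes exon inclusion, measured 12.62, 12.74 and 12.63 at day 0 and 11.05, 11.54, 11.26 and 11.21 at day 1 (-1.40 (SE 0.09)). Hnrnph1 fell by 1.19 (SE 0.10), and Ptbp1, which holds back muscle exons, by 1.09 (SE 0.11). The 2 that rose were Msi2 (0.95) and the muscle factor Rbm24, which emerged from below detection, at least 1.05-fold. Day 1 replicate 4 of Rbm24, at 6.87, lay at the detection level itself. Of other factors known for muscle splicing, Mbnl1 fell by 0.38, a call lost without any 1 of 4 control samples (adjusted p up to 0.148), and Rbfox1, below detection at day 0, Rbfox2 (-0.16) and Celf2 (0.31) were not called. With the replicate number as a block Celf2 was called (0.3613, adjusted p = 0.0324).

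**Figure D4:**
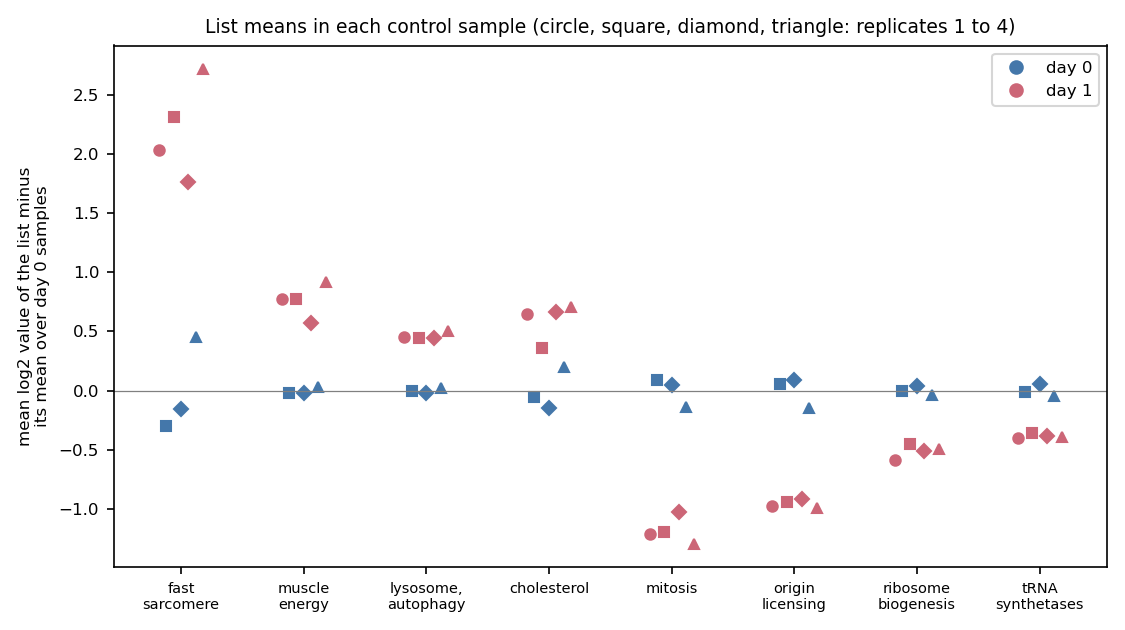
Mean log2 value of the tested genes of 8 lists in each control sample, less the mean of the day 0 samples. Blue is day 0, red is day 1, and marker shape is the replicate number. The days are apart for every list shown, and replicate 4 is highest on both days for the fast sarcomere list and lowest on both days for the mitosis list.

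Many genes that serum and actin tension induce fell. In the list of serum-responsive, Yap and Srf targets 11 of 23 tested genes fell and 2 rose (median -0.27). The smooth muscle actin Actg2 measured 11.20, 10.89 and 11.50 at day 0 and 8.72, 9.41, 8.71 and 9.88 at day 1 (-2.01 (SE 0.34)), and the Yap targets Ccn1 and Ccn2 fell by 1.13 and 1.13 and Tagln by 0.96. Cytoplasmic actin, Actb, fell by 0.38 (SE 0.09) while skeletal actin, Acta1, rose by 3.34 (SE 0.45). Immediate early genes, sampled 24 h after the change of medium, were called in 5 of 25 tested cases. Of them 4% rose and 16% fell, below the 20.7% and 19.1% of all genes. Egr2, Ier3 and Egr1 were among the 4 falls (-0.87, -0.72 and -0.32) and the phosphatase Dusp1 was the rise (0.73), and Fos was not called (0.04). The call of Egr1 was lost without any 1 of 4 control samples (adjusted p up to 0.198).

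Matrix genes moved in both directions. Dcn, decorin, a proteoglycan that binds collagen and TGF-beta, had the second largest rise of all genes, from 7.67, 7.72 and 7.46 at day 0 to 12.06, 11.79, 11.78 and 10.68 at day 1, with replicate 4 the lowest of its group on both days (3.96 (SE 0.25), limma adjusted p = 1.17e-08). Of 46 tested matrix glycoproteins and proteoglycans 15 rose and 8 fell (median 0.07), with fibronectin, Fn1, rising by 1.46 (SE 0.14), Mgp by 1.15 (SE 0.15) and Sdc2 by 1.12 (SE 0.15), and the hyaluronan synthases Has1 and Has2 falling (-0.77 and -0.83). Has1 lost its call without any 1 of 4 control samples (adjusted p up to 0.153). Of 30 tested collagen genes 10 rose and 7 fell, Col3a1 by 0.72 and Col4a5 by 1.03 upward and Col4a1 by 0.76 downward, with Col1a1 (0.14) not called. Mmp2, a gelatinase, rose by 1.33 (SE 0.20), and Plaur, the urokinase receptor, fell by 0.76 (SE 0.10). Tgm2, a transglutaminase that cross-links matrix proteins, rose from 8.19, 8.15 and 8.47 to 11.39, 11.61, 10.80 and 11.62 (3.08 (SE 0.17)), and Serping1, the C1 inhibitor, by 2.74 (SE 0.10). Krt14, a keratin of basal epidermis, fell from 10.21, 10.01 and 10.55 to 7.89, 8.20, 8.64 and 8.85 (-1.86 (SE 0.25)). Of the 30 largest rises that belong to no list described here, Aldh3b1, an aldehyde dehydrogenase gene, rose by 2.47 (SE 0.10), Ly6c1, a surface antigen gene, by 2.40 (SE 0.25) and Efhd1, which encodes a calcium-binding protein of mitochondria, by 2.09 (SE 0.21).

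Secreted signals changed gene by gene. In the list of growth factors and the IGF axis 16 of 55 tested genes rose and 8 fell. Igf2, a growth factor of muscle differentiation, was not called at 0.39 (SE 0.60) (limma adjusted p = 0.678) but was called with the replicate number as a block (0.6727, adjusted p = 0.028). Its binding proteins Igfbp2 and Igfbp5 and its receptor Igf2r rose by 0.96, 0.77 and 0.93. Hbegf, Gdnf, Pdgfa and Fgf7 fell (-1.05, -0.95, -0.89 and -0.77). In the TGF-beta and BMP list Inhba, the activin subunit, fell by 1.23 (SE 0.10) and the BMP antagonist Grem1 by 0.82 (SE 0.17), and Bmp4 and its antagonist Chrd rose by 0.99 and 0.95. Csf1 and Ccl7 fell (-1.14 and -1.11), and the cytokines Il18 and Il33 rose (1.50 and 1.29). The class I antigen presentation genes H2-T23, H2-D1 and B2m rose by 0.96, 0.84 and 0.68, in a list where 12 of 31 tested genes rose and 1 fell.

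Of 43 tested redox genes 12 rose and 10 fell (27.9% and 23.3%, against 20.7% and 19.1% of all genes). Gclm and Hmox1, targets of the factor NRF2, fell by 1.45 and 1.14, whereas Selenow, a small selenoprotein abundant in muscle, Gstm2 and Txnip rose by 1.93, 1.29 and 1.26. Nqo1, another NRF2 target, was not called (change -0.9996, SE 0.51, limma adjusted p = 0.146): its day 0 values of 10.35, 10.21 and 10.30 overlap the day 1 values of 9.45, 8.47, 10.33 and 8.91, which spread over nearly 2 units. Mest, an imprinted gene, also spread widely at day 1, at 8.92, 9.89, 8.75 and 10.04 with replicates 2 and 4 highest, but stayed apart from 7.72, 7.73 and 8.03 at day 0 (1.57 (SE 0.26)). Neat1 rose by 0.64 (SE 0.20) with its groups overlapping, a call lost without any 1 of 5 control samples (adjusted p up to 0.0746).

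The targeted gene, Stac3, was measured at 7.04, 6.98 and 7.15 in the control day 0 samples and 7.53, 7.69, 7.52 and 7.97 in the control day 1 samples. In RNAi cells it was at 6.70, 6.68, 6.79 and 6.75 in day 0 replicates 1 to 4 and 6.74, 6.74, 6.70 and 6.81 in day 1 replicates 1 to 4. All 8 RNAi samples lay below the detection level and all 7 control samples above it. Which of these changes differed in cells that received the RNAi against STAC3 was tested as the difference between the 2 day effects, RNAi minus control. It was called for 865 of 18408 probes and 555 of 10146 genes (5.47%), 281 with the RNAi change above that of control and 274 below. Of the 2100 rises of control cells 238 (11.3%) differed, 165 being smaller and 73 larger in RNAi cells, and of the 1940 falls 136 (7.01%) differed, 83 being smaller and 53 larger. Because the control change chose these genes and enters the difference, an excess of smaller changes is built in, for these and for the 30 largest rises and falls below, and the counts are a description only. The count of probes was unsteady: it was 470 without control day 0 replicate 2, 453 without control day 0 replicate 3 and 555 without STAC3 RNAi day 1 replicate 2. Of the 30 largest rises of control cells 12 were smaller in RNAi cells and 1, Ypel3, was larger (2.02 in control and 2.74 in RNAi cells). Of the 30 largest falls 10 were smaller in RNAi cells and 0 larger.

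The largest called difference was that of Pvalb, the calcium buffer parvalbumin, which had 6.91, 6.78 and 7.48 at day 0 and 10.37, 11.05, 9.91 and 11.83 at day 1 in control cells. Its change was 3.73 in control and 0.16 in RNAi cells, a difference of -3.57 (SE 0.44) (limma adjusted p = 0.000436). Fgf21 changed by 2.28 and 0.29 (difference -1.98 (SE 0.15)) and Serping1 by 2.74 and 1.23 (difference -1.50 (SE 0.14)). Mymk rose by 2.02 in control and 0.44 in RNAi cells (difference -1.58 (SE 0.28)), and Mb, Pgam2, Actn3 and Tmem38a differed by -1.76, -1.71, -1.54 and -1.50. Tnnc2 and Chrng differed by -1.98 (SE 0.53) and -1.64 (SE 0.39), but Tnnc2 lost that call without any 1 of 11 samples (adjusted p up to 0.126), Chrng without any 1 of 4 (up to 0.0805) and Mb without any 1 of 3 (up to 0.0749). For Myog, with 2.29 in control and 1.03 in RNAi cells, the difference of -1.27 (SE 0.36) was not called (limma adjusted p = 0.054), nor was that of Mylpf (difference -1.70 (SE 0.74), limma adjusted p = 0.22).

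In the other direction, genes such as Fam180a, the matrix protein gene Mgp, the membrane glycoprotein gene Gpnmb, the protease gene Htra3 and Cp, ceruloplasmin, rose more in RNAi cells than in control cells, by 2.24, 1.21, 1.19, 1.17 and 1.14 (largest limma adjusted p = 0.0158). Mgst1, Igfbp4, Fam20a, Gpr176 and Ugt1a10 also had differences above 0, of 1.49, 1.25, 1.29, 1.16 and 1.72, and the last of these lost its call without any 1 of 10 samples (adjusted p up to 0.0837). Igfbp4 lost it without either of 2 (up to 0.0679). Pvalb lay below the detection level in all 4 RNAi day 0 samples and 3 of the 4 RNAi day 1 samples, Pgam2 in all 3 control day 0 samples and 3 of the 4 RNAi day 1 samples, and Fam180a in all 3 control day 0 and 3 of the 4 RNAi day 0 samples, so the differences of these 3 genes are partly measured against background. In control cells Fam180a rose at least 1.61-fold, and the rise of Gpnmb there lost its call without either of 2 control samples (adjusted p up to 0.103). Of the growth and division lists 3 of 44 licensing genes (6.82%), 4 of 65 mitosis genes (6.15%) and 4 of 58 ribosome assembly genes (6.90%) differed, close to the 5.47% of all genes, with medians of -1.002, -1.24 and -0.52 in control and -1.20, -1.18 and -0.53 in RNAi cells. Other such lists had higher shares: 5 of 19 in the serine synthesis list (26.3%), 4 of 18 cyclins and kinases (22.2%) and 8 of 43 histones (18.6%). Of kinase inhibitors, pocket proteins and E2Fs 4 of 25 differed (16%), and of DNA precursor genes 3 of 22 (13.6%). E2f1 changed by 0.61 in control and -0.71 in RNAi cells (difference -1.33 (SE 0.09)), and Cdkn1a by 1.15 and 0.36 (difference -0.80 (SE 0.12)). For the lysosome and autophagy list 4 of 49 differed (8.16%), with medians of 0.44 and 0.53. The muscle lists were uneven: 9 of 23 energy genes, 6 of 24 calcium release genes and 4 of 11 fast sarcomere genes differed. So did 6 of 31 Z-disc and M-band genes, 2 of 13 junction genes and 1 of 16 ubiquitin ligases of muscle. Shares were below the 5.47% of all genes for myogenic regulators (1 of 22) and fusion genes (1 of 31). Of the costamere genes 0 of 18 differed, and of the slow and cardiac isoforms 0 of 10. The fast sarcomere median was 2.62 in control and 0.92 in RNAi cells. The slow and cardiac median was also lower in RNAi cells, at 0.86 in control and 0.32 in RNAi cells, although none of its differences was called. For the costamere genes the medians were 0.27 and 0.28.

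**Figure D5:**
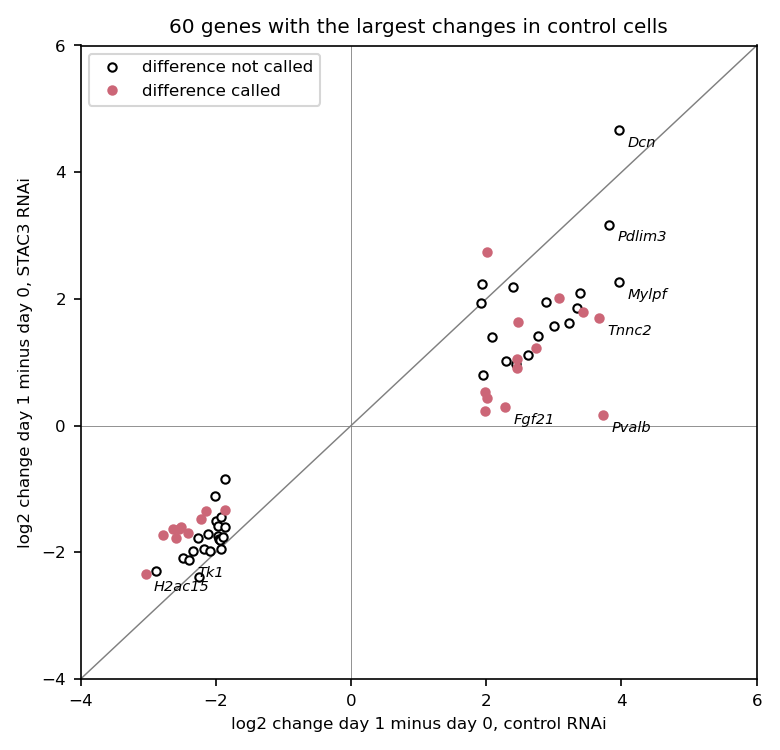
Change from day 0 to day 1 in control cells (horizontal) against that in cells with RNAi against STAC3 (vertical), in log2 units, for the 30 largest rises and 30 largest falls of control cells. The diagonal marks equal change and filled points have an adjusted p below 0.05 for the difference. Of the rises Pvalb, at 3.73 and 0.16, lies farthest from the diagonal, and Dcn, at 3.96 and 4.66, lies above it without being called.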

How the data were processed

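RNA of 15 samples was measured on 18 Illumina mouse bead arrays. The deposited non-normalised table gives bead intensities and detection p-values for 45281 probes, per the file headers. A further table by the authors holds log2 values of 24538 probes. They were normalised with lumi according to the submitters' processing notes, its version being not given in the sources used here, and the log2 unit rests on the values themselves. In 12 of 18 columns the names of the 2 tables disagree, so samples were taken from the value table, in which each repeat array ranked its named partner as its best match. The filter kept probes that passed a detection p-value of 0.01 on 3 arrays or more: 18408, of which 15954 carry 1 gene name and cover 10146 genes. The detection level of 6.87 ranged from 6.85 to 6.92 between arrays, and 15146 to 16802 probes were detected per array.

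Repeat arrays were averaged with their partners. The 4 groups entered 1 model in limma (3.58.1, R 4.3.3), with Benjamini-Hochberg adjustment over the 18408 probes and a threshold of 0.05, after a test on simulated data. The text names the 30 largest rises and falls among called genes whose control groups do not overlap, the 10 largest differences in each direction between RNAi and control cells, and leading, role-defining and opposing members of each list. The samples compared, the lists and the tests were chosen with earlier results of these data known. Myh3, Mki67, H19 and Pax7 are not named in the value table. Promoter windows (RefSeq, GRCm38.p6) were found for 8219 of the 10146 genes.

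Replicate numbers pair the samples by the correlations of their deviations from the group means: 0.131, 0.210 and 0.226 for equal numbers and -0.219 to 0.0734 for unequal ones. The labels do not say what a number stands for. Alternatives covered the filter, repeat arrays, scaling, variance model, blocks for replicate and array set, each sample left out, and the non-normalised table by column name.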

Additional observations from a re-analysis of the deposited data

Results flagged for a closer look

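In 8 of the 324 named genes examined (2.47%), 1 of the 4 control day 1 samples stood far from the other 3, with a gap beyond Dixon's critical value, where chance gives about 1 gene in 20. Replicate 4 was above the others for the lysosomal peptidase gene Tpp1 (9.77 against 9.50 to 9.53), for Rbl2 (7.01 against 6.87 to 6.89) and for Id2 (7.89 against 7.62 to 7.66). Replicate 1 was below the others for Ncl (8.46 against 8.90 to 8.96) and Neat1 (7.32 against 8.01 to 8.09). Replicate 2 was below for Bcat1 (8.30 against 8.82 to 8.83), and replicate 3 was above for Gdnf (8.22 against 7.68 to 7.73) and for the mitotic checkpoint kinase Bub1b (8.06 against 7.71 to 7.76). Of these 8 genes Rbl2 was the one whose change from day 0 was not called.

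The change over the first day differed between cells with the RNAi against STAC3 and control cells, by the limma test of the difference itself. The 10 largest called differences in each direction are given here. The change was higher in RNAi cells for Fam180a (2.24), Ugt1a10 (1.72), Mgst1 (1.49), Fam20a (1.29), Igfbp4 (1.25), Mgp (1.21), Gpnmb (1.19), Htra3 (1.17), Gpr176 (1.16) and Cp (1.14). It was lower for Pvalb (-3.57), Fgf21 (-1.98), Tnnc2 (-1.98), Mb (-1.76), Pgam2 (-1.71), Chrng (-1.64), Mymk (-1.58), Actn3 (-1.54), Serping1 (-1.50) and Tmem38a (-1.50). Among these 20, the calls of Ugt1a10, Igfbp4, Tnnc2, Mb and Chrng were lost when single samples were left out.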

How the results depend on the processing

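The main comparison called 6599 probes and the difference between RNAi and control 865. In no alternative did a probe called in both change sign in control cells. For the main comparison the count was 5412 to 6861 with each sample left out, and 5586 to 7071 under the other filters, scalings, variance models and blocks, within the 12 arrays, with only the control groups and without repeat arrays. Within the 6 arrays, where the control groups have 1 and 2 samples and the lone sample is assumed to vary like the others, 2108 probes were called, and Tcf12 (-0.0147, adjusted p = 0.954) and Has1 (0.2922, adjusted p = 0.241) changed sign; the cause was not tested, though that fit holds fewer samples. The non-normalised table by column name gave 0 probes with limma (90 at an unadjusted p below 0.05) and gave the opposite sign for 794 of the 6599 called probes and 34 of the 324 named genes examined. The difference gave 453 to 1084 with each sample left out, 685 to 1216 under the settings above, 0 within the 6 arrays (1358 at an unadjusted p below 0.05) and 0 from the non-normalised table (1079). With the replicate block the counts were 6679 and 1102; among named genes the block also ended the call of Gjc1 (-0.2663, adjusted p = 0.0705) and gave one to Fam20a (-0.3339, adjusted p = 0.017), and it changed no other call of the main comparison beyond those given in the report. Under other scalings, with array sets blocked and within the larger set of 12, the fast sarcomere list had 8 rises, the lysosome and autophagy list 32 to 33 rises, the licensing list 41 falls and the mitosis list 60 falls. Within the 6 arrays these counts were 8, 20, 29 and 54, and the median change was 1.73 for the fast sarcomere list (2.62 in the main comparison), 0.44 for the slow and cardiac list (0.86), 0.29 for calcium release (0.58), 0.01 for the junction (0.45), 0.07 for myogenic regulators (0.11) and 0.16 for ubiquitin ligases of muscle (0.26). Settings for the difference beyond the filter, repeat arrays, variance model, replicate block and left-out samples were chosen after seeing the data, as was leaving out RNAi samples for the main comparison. Dim genes are limited by the compression of the authors' scale near the detection level.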
